A study of Mus musculus with 15 samples.

Results

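Mouse livers labelled as overexpressing Yap were compared with control livers labelled TdTomato, across all genes, by poly(A) RNA sequencing. All 5 libraries titled Yap OE and all 4 titled TdTomato were used, 9 of the 15 libraries of the series, and they are called YAP_OE and TdTomato here. The remaining 6 libraries, labelled LATS KO, were not compared. The design text of the series speaks of wild type liver, a name that no title carries. Liver is the only tissue given for either group, and TdTomato is the name of a red fluorescent protein that is often used as a control transgene. The titles and characteristics name no strain, age, sex, diet, time point, vector, dose, promoter or form of Yap, so the cells that received either agent are not known from them, and neither is anything the groups share beyond the tissue. The extraction text of the labels instead names WT mice and mice with a genotype written Cyr61DHep, both treated to give NASH, a fatty liver disease with inflammation. No title carries these names, and whether the text applies to any library used here is not known. Whether each library stems from its own animal is not stated. The p-values then speak only of differences among the libraries sequenced, and part of these may be technical.

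YAP is a transcriptional coactivator that binds no DNA by itself and acts through the TEAD transcription factors. The Hippo kinases MST and LATS phosphorylate YAP and its paralog TAZ (gene Wwtr1) and keep them out of the nucleus, and loss of that brake, or a surplus of YAP, is known to enlarge the liver and to move hepatocytes towards a biliary or progenitor state. YAP and TEAD are also known to switch on secreted factors that act on neighbouring cells, among them CTGF, CYR61 and the monocyte attractant CCL2. Monocytes and cell division induced by YAP are named in the study's title.

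Each library held 13523194 to 28225360 counts in genes. TdTomato 1 stood apart: 78.5% of its reads did not map (2.53% to 13.6% elsewhere), and 8501 genes had a count against 13372 to 13559 in TdTomato 2 to 4 and 15181 to 15493 in YAP_OE. Its log2 CPM correlated with those of its group at 0.794 to 0.814 across genes, against 0.976 to 0.986 among TdTomato 2 to 4 and 0.938 to 0.991 among the YAP_OE libraries. Every list count below is therefore also given without it. YAP_OE 1 and 5 differed from YAP_OE 2 to 4 in the share of mapped reads that fell in no gene, at 10.8% and 14.9% against 6.11% to 7.37%.

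Of 24411 genes, 12713 had enough counts to be tested. YAP_OE was higher in 2737 of them (21.5%) and lower in 2116 (16.6%), and 38.2% of the tested genes passed the threshold in either direction. The groups did not overlap in 28.1% of tested genes with YAP_OE higher and in 13.7% with YAP_OE lower. TdTomato 1 was at 0 in 4473 tested genes. Counts and separations given below are to be read beside these shares. The gene lists were chosen with earlier results of these data known, so their counts are descriptive. Adjusted p-values here and below come from edgeR's quasi-likelihood test with Benjamini-Hochberg adjustment over all 12713 genes, and a gene is said to rise or fall only where its adjusted p was under 0.05. Large changes were mostly rises: 2054 genes rose and 379 fell by at least 4-fold in the fitted values, with genes of 0 to 3 control counts among the rises. The filter for testing is not even between the groups. It asks for enough counts in 4 libraries, the size of the smaller group. A gene seen only in YAP_OE can spare 1 library, but a gene seen only in TdTomato needs all, TdTomato 1 included. Of the tested genes, 214 were at 0 in all controls and 0 were at 0 in all YAP_OE libraries. The part of the filter in the excess of large rises was not tested. Levels are CPM, read counts scaled to the size of each library. Changes are log2 fold changes of YAP_OE over TdTomato with their standard error (SE). Where the controls held only 1 to 3 counts, a ratio of CPM is given with its 95% interval. Such a ratio rests on the 1 to 3 control libraries that hold those counts, and bounds and intervals cover counting error only. Without TdTomato 1, 4216 of 12988 genes were higher (32.5%) and 3452 lower (26.6%), and 4814 of the 4853 calls were kept, with 0 in the opposite direction. The median log2 fold change over all tested genes was 0.15, and 0.06 without TdTomato 1. It became 0.35 with RLE factors and with DESeq2 and 0.30 with upper-quartile factors, which moved the share of rises among all calls from 56.4% to 66.0%, 66.6% and 63.7%.

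**Figure D1:**
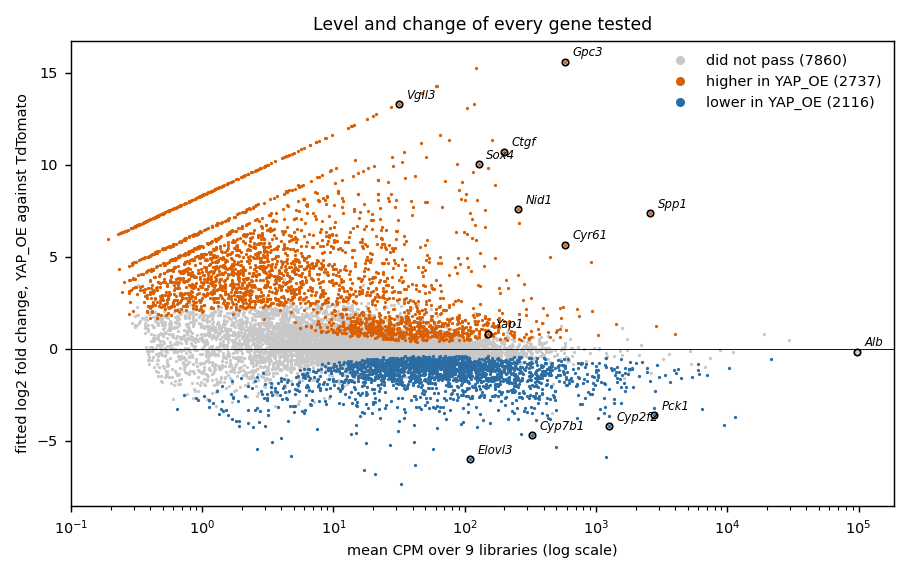
Fitted log2 fold change (vertical axis) against the mean CPM over 9 libraries (horizontal axis, log scale) for 12713 genes, coloured by the test, with 13 genes named. The straight lines of points at the upper left are genes with 0 to 3 counts in all controls together, whose fitted values depend on the prior count. No fold of such a gene is quoted from the fit of 9 libraries, but these values enter the list medians, the count of 4-fold rises and the choice of the largest rises. Some folds quoted without 1 control library, such as those of Col3a1 and Krt7, rest on as few remaining control counts. They depend on the prior count too.

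Yap1 itself (chromosome 9, 7931999 to 8004596, GRCm38) was at 95.6, 116, 104 and 104 CPM in TdTomato 1 to 4, against 213, 185, 147, 197 and 183 CPM in YAP_OE 1 to 5. The groups did not overlap, and the means were 105 ± 8.29 CPM (SD, n = 4) in TdTomato and 185 ± 24.4 CPM (SD, n = 5) in YAP_OE. Yap1 thus rose, with a log2 fold change 0.82 ± 0.15 (SE), adjusted p = 0.0019. Counting by gene does not tell transcripts of the mouse gene from those of an added Yap copy, and an added copy that differs in sequence would be missed in part. Its paralog Wwtr1, the gene of TAZ, had 5.15, 16.04, 18.3 and 9.62 CPM in TdTomato 1 to 4, against 68.0, 55.8, 56.3, 61.9 and 53 CPM in YAP_OE 1 to 5. Wwtr1 did not overlap between the groups, and its log2 fold change was 2.26 ± 0.34 (SE), adjusted p = 7.6e-04. Whether Wwtr1 changed more than Yap1 was not tested.

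The TEAD factors, through which YAP and TAZ reach DNA, changed unequally. Tead4 (chromosome 6, 128224288 to 128300823) was at 0 CPM in every control, against 27.8, 26.2, 19.8, 24.7 and 17.4 CPM in YAP_OE 1 to 5. Tead4 was thus at least 501-fold higher in YAP_OE, adjusted p = 4.2e-05. Tead2 was at 0, 0.0555, 0.240 and 0.0481 CPM in TdTomato 1 to 4, against 8.22, 11.7, 17.3, 20.5 and 7.30 CPM in YAP_OE 1 to 5. For Tead2 the groups were apart, and the log2 fold change was 7.23 ± 0.83 (SE), adjusted p = 2.1e-04, or 8.23 without TdTomato 3. Tead1 ranged over 3.28 to 11.6 CPM in TdTomato and 60.2 to 101.5 CPM in YAP_OE. Tead1 lay above every control in all 5 YAP_OE libraries, with a log2 fold change of 3.39 ± 0.40 (SE), adjusted p = 2.3e-04. Tead3 had no overlapping values (0 to 12.3 CPM in TdTomato and 12.4 to 19.2 CPM in YAP_OE) but did not pass the threshold (log2 1.00 ± 0.91, adjusted p = 0.44), and gave 0.59, adjusted p = 0.02 without TdTomato 1. Vgll3, a cofactor that binds TEAD proteins in place of YAP, was at 0 CPM in every control, against 82.6, 52.9, 39.6, 57.3 and 49.2 CPM in YAP_OE 1 to 5. Vgll3 was thus at least 1228-fold higher in YAP_OE, adjusted p = 2.6e-05.

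Among the Hippo pathway components, 15 of 30 tested members rose and 1 fell (22 and 2 of 30 without TdTomato 1), with a median log2 fold change 1.61. Lats1, a core kinase of the pathway, was at 0, 44.7, 46.4 and 28.9 CPM in TdTomato 1 to 4, against 31.0, 36.4, 40.1, 26.8 and 20.3 CPM in YAP_OE 1 to 5. Lats1 did not pass (log2 0.04 ± 0.95, adjusted p = 0.98). Lats2, which YAP is known to induce, was at 0, 19.7, 19.3 and 17.5 CPM in TdTomato 1 to 4, against 62.5, 61.4, 54.2, 55.3 and 49.1 CPM in YAP_OE 1 to 5. Every YAP_OE value of Lats2 lay above every control, as in 28.1% of all genes tested. With TdTomato 1 in the fit Lats2 did not pass (log2 2.00 ± 0.88, adjusted p = 0.10). Without TdTomato 1 its log2 fold change was 1.58, adjusted p = 1.4e-05. The rises included the angiomotins Amotl2 (means 27.0 and 436 CPM, log2 4.02) and Amot (means 11.4 and 69.7 CPM, log2 2.62), which hold YAP at cell junctions, and the phosphatase Ptpn14 (means 0.210 and 34.9 CPM, log2 7.31). The scaffolds Wwc1 (means 120.1 and 431 CPM, log2 1.84), Wwc2 (means 16.9 and 43.8 CPM, log2 1.37) and Frmd6 (means 2.07 and 27.4 CPM, log2 3.71) rose as well. Taok3, a kinase upstream of MST, was the member that fell (log2 -0.61 ± 0.21, adjusted p = 0.039, not past the threshold without TdTomato 2, 3 or 4 or YAP_OE 1, 2, 4 or 5, with adjusted p up to 0.10), and its groups overlapped.

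**Figure D2:**
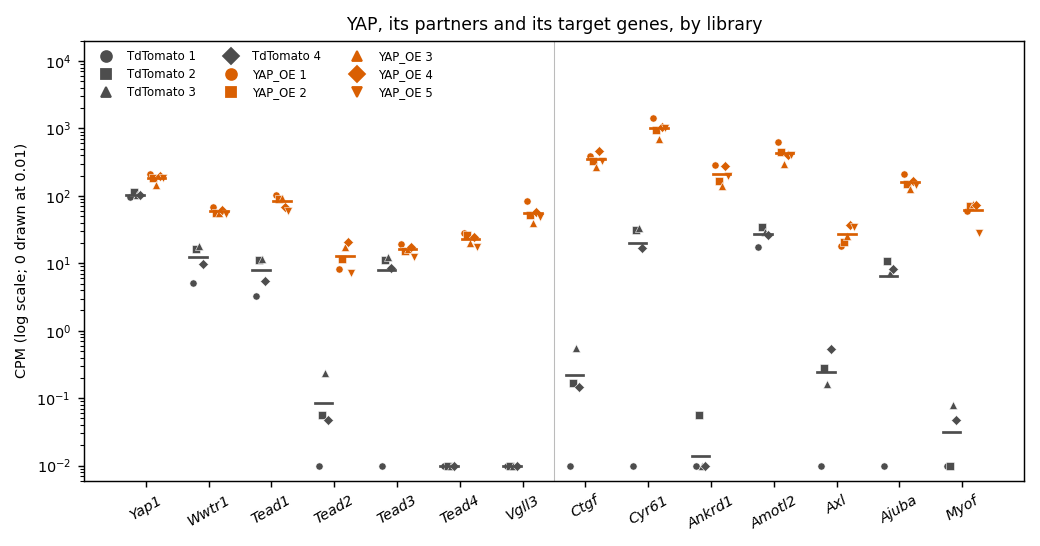
CPM (vertical axis, log scale, 0 drawn at 0.01) of Yap1, Wwtr1, the TEAD genes and Vgll3 (left of the line) and of 7 YAP/TEAD target genes (right) in each library, with bars at the group means. Tead4 and Vgll3 are at 0 in all 4 TdTomato libraries, and TdTomato 1 is the lowest control or at 0 in each gene drawn.

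Of the YAP/TEAD target genes, 17 of 21 tested members rose and 0 fell (20 and 1 of 22 without TdTomato 1), with a median log2 fold change 4.60. These are genes that TEAD proteins are known to bind in other cells. Ctgf (chromosome 10, 24595442 to 24598683), a secreted matricellular protein, was at 0, 0.167, 0.561 and 0.144 CPM in TdTomato 1 to 4, against 387, 334, 267, 469 and 332 CPM in YAP_OE 1 to 5. Ctgf did not overlap between the groups, and its log2 fold change was 10.72 ± 0.58 (SE), adjusted p = 7.3e-06, or 11.54 without TdTomato 3. Cyr61 (chromosome 3, 145646976 to 145649981), its close relative, was at 0, 31.4, 33.2 and 16.7 CPM in TdTomato 1 to 4, against 1429, 938, 704, 1050.1 and 1016 CPM in YAP_OE 1 to 5. For Cyr61 the groups were apart, and the log2 fold change was 5.66 ± 1.10 (SE), adjusted p = 0.0027. No YAP_OE library of either gene came near a control, and TdTomato 1 was at 0 for both. Since the extraction text names a Cyr61 genotype, the Cyr61 values carry the doubt given above about the samples.

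Ankrd1 (chromosome 19, 36111961 to 36120099), a nuclear ankyrin repeat protein, had 1 count in all controls together and was at 285, 166, 142, 275 and 198 CPM in YAP_OE 1 to 5. Ankrd1 was 13879 times as high in YAP_OE (95% interval 2491 to 548216), adjusted p = 2.7e-06. Axl, a receptor tyrosine kinase, was at 0, 0.278, 0.160 and 0.529 CPM in TdTomato 1 to 4, against 17.9, 20.5, 25.2, 37.4 and 34.6 CPM in YAP_OE 1 to 5. Axl lay above every control in all 5 YAP_OE libraries, with a log2 fold change of 6.68 ± 0.71 (SE), adjusted p = 1.6e-04, or 7.40 without TdTomato 4. Ajuba, a scaffold that inhibits LATS, was at 0, 11.0, 7.13 and 8.18 CPM in TdTomato 1 to 4, against 213, 152, 125, 168 and 144 CPM in YAP_OE 1 to 5. Ajuba did not overlap between the groups, and its log2 fold change was 4.60 ± 0.86 (SE), adjusted p = 0.0023. Myof, a membrane repair protein, had 2 control counts and was at 59.9, 70.1, 76.7, 74.3 and 28.2 CPM in YAP_OE 1 to 5. Myof was 1993 times as high in YAP_OE (95% interval 551 to 16457), adjusted p = 1.0e-05. Smaller rises were seen in Crim1 (means 13.6 and 85.4 CPM, log2 2.65), Nuak2 (means 7.42 and 71.2 CPM, log2 3.25) and Gadd45a (means 10.1 and 58.0 CPM, log2 2.52). Of the members that did not pass, Dock5 gave log2 -0.74 ± 0.36, adjusted p = 0.13 and F3 log2 0.98 ± 0.63, adjusted p = 0.26, both with overlapping groups.

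The DNA before the starts of these target genes was searched for the core TEAD motif, GGAATG, on both strands, where CATTCC marks the reverse strand. Of the 23 target genes, 16 were matched to a RefSeq promoter (GRCm38.p6), and 7 of these held the motif in the 250 bases before the RefSeq start. By entries, of which a gene may have more than 1, these were 7 of 18, against 4153 of 32851 promoter entries of the same length over all genes (12.6%). A match describes letters only. The promoters of Cyr61, Ajuba and Ptpn14 are shown as examples that hold the motif and whose genes rose, with the 250 bases before the start written 5′ to 3′ on the strand of the gene and the motif in capitals.
Cyr61 (chr3:145649986-145650235, minus strand): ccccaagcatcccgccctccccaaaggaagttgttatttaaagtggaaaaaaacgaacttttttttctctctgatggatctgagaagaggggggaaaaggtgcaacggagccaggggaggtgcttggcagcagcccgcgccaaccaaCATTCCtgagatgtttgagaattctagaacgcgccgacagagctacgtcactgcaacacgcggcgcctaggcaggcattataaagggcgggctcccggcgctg
Ajuba (chr14:54577662-54577911, minus strand): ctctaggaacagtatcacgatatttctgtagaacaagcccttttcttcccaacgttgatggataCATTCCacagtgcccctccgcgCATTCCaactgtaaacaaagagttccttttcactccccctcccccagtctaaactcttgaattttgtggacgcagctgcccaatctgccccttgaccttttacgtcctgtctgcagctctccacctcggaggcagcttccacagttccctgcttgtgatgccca
Ptpn14 (chr1:189728018-189728267, plus strand): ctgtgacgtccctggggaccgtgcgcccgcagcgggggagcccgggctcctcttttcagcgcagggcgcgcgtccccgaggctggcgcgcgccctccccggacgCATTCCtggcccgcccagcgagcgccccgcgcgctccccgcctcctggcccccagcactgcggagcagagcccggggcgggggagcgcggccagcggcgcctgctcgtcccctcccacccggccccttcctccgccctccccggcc
All 4 matches in the sequences above are in the reverse orientation, 103 bases before the start in Cyr61, 186 and 164 bases in Ajuba, and 146 bases in Ptpn14. The others with the motif were Ankrd1, with 2 matches 210 and 123 bases before the start, Axl (233 bases), Crim1 (79 bases) and Amotl2 (65 bases). For Ankrd1 and Amotl2, GENCODE M21 places the start of an exon of the gene upstream of the matches. By that annotation these matches lie inside the gene, not before it. For Ajuba and Axl, bases just after the RefSeq start were not found near the start of a GENCODE M21 transcript of the gene. The place of the start is thus less sure for Ajuba and Axl. Gadd45a, Igfbp3, Myof and Tgfb2 also rose and had no match in this window.

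Genes of the cell cycle were mostly higher. All of the G2/M and mitosis genes tested rose: 24 of 24 tested members rose and 0 fell (24 and 0 of 24 without TdTomato 1), with a median log2 fold change 4.32. Mki67, the proliferation antigen Ki-67, was at 7.03, 4.55, 3.53 and 0.481 CPM in TdTomato 1 to 4, against 79.9, 33.1, 33.3, 19.5 and 46.5 CPM in YAP_OE 1 to 5. For Mki67 the groups were apart, and the log2 fold change was 3.45 ± 0.70 (SE), adjusted p = 0.0035. The spindle kinase Ttk was at 0, 0.777, 0.481 and 0.0962 CPM in TdTomato 1 to 4, against 18.4, 8.98, 6.41, 6.63 and 17.2 CPM in YAP_OE 1 to 5. Ttk lay above every control in all 5 YAP_OE libraries, with a log2 fold change of 5.06 ± 0.95 (SE), adjusted p = 0.0023, or 5.92 without TdTomato 2. Kif23, a motor protein of cytokinesis, was at 0, 0.222, 0.160 and 0.192 CPM in TdTomato 1 to 4, against 20.3, 6.15, 6.53, 6.31 and 18.3 CPM in YAP_OE 1 to 5. Kif23 did not overlap between the groups, and its log2 fold change was 6.22 ± 0.85 (SE), adjusted p = 4.7e-04. Summed over the list, mitosis genes were at 21.9, 39.7, 36.6 and 8.42 CPM in TdTomato 1 to 4 and 732, 291, 259, 219 and 608 CPM in YAP_OE 1 to 5. YAP_OE 1 and 5 thus held more than 2 times the sum of each other YAP_OE library, and they are also the libraries with the larger share of reads outside genes. The part of that share in the difference was not tested.

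For DNA replication genes, 18 of 24 tested members rose and 1 fell (21 and 1 of 24 without TdTomato 1), with a median log2 fold change 2.59. Examples are the helicase subunits Mcm2 (means 5.17 and 31.0 CPM, log2 2.59) and Mcm7 (means 13.2 and 65.8 CPM, log2 2.32), the licensing factor Cdc6 (mean 5.12 CPM in YAP_OE, ratio 111, 37.9 to 541), and the ubiquitin ligase Uhrf1 (means 0.287 and 23.9 CPM, log2 6.36, or 7.32 without TdTomato 2). Mcm10, a replication initiation factor, went the other way and was at 30.4, 74.0, 172 and 66.1 CPM in TdTomato 1 to 4, against 9.65, 18.8, 23.4, 9.80 and 19.97 CPM in YAP_OE 1 to 5. For Mcm10 the groups were apart, and the log2 fold change was -2.39 ± 0.48 (SE), adjusted p = 0.0034.

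Of the G1 cyclins and CDK inhibitors, 12 of 20 tested members rose and 1 fell (17 and 1 of 21 without TdTomato 1), with a median log2 fold change 1.65. Cyclin D1 (Ccnd1), which carries cells out of G1, was at 13.8, 39.6, 32.1 and 13.5 CPM in TdTomato 1 to 4, against 1057, 701, 621, 909.7 and 655 CPM in YAP_OE 1 to 5. Ccnd1 lay above every control in all 5 YAP_OE libraries, with a log2 fold change of 4.99 ± 0.43 (SE), adjusted p = 6.1e-05. Its partner Cdk4 rose less (log2 1.41 ± 0.16, adjusted p = 2.0e-04). The inhibitor p21 (Cdkn1a), which blocks cyclin-dependent kinases, was at 3.59, 4.66, 8.01 and 8.23 CPM in TdTomato 1 to 4, against 197, 236, 232, 319.9 and 168 CPM in YAP_OE 1 to 5. Cdkn1a did not overlap between the groups, and its log2 fold change was 5.23 ± 0.35 (SE), adjusted p = 1.7e-05. Both a cyclin and an inhibitor of the same step thus rose. Myc was at 0, 3.72, 18.1 and 1.88 CPM in TdTomato 1 to 4, against 76.6, 53.3, 64.3, 65.9 and 70.7 CPM in YAP_OE 1 to 5. For Myc the groups were apart, and the log2 fold change was 3.49 ± 1.01 (SE), adjusted p = 0.02, not past the threshold without TdTomato 2 or 4, with adjusted p up to 0.059, or 5.10 without TdTomato 3. The retinoblastoma relative Rbl2 was the member that fell (log2 -0.70 ± 0.21, adjusted p = 0.025, not past the threshold without TdTomato 2 or 3 or YAP_OE 1, 4 or 5, with adjusted p up to 0.076).

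Targets of p53, the tumour suppressor that arrests damaged cells, moved mostly in 1 direction: 14 of 20 tested members rose and 1 fell (15 and 1 of 20 without TdTomato 1), with a median log2 fold change 1.45. Apart from Cdkn1a, the smallest adjusted p-values were those of Phlda3 and Zmat3. Phlda3, an inhibitor of Akt, was at 0, 0.167, 0.160 and 0.0481 CPM in TdTomato 1 to 4, against 49.6, 60.9, 55.2, 83.2 and 64.4 CPM in YAP_OE 1 to 5. Phlda3 lay above every control in all 5 YAP_OE libraries, with a log2 fold change of 9.30 ± 0.48 (SE), adjusted p = 6.4e-06. The RNA-binding protein Zmat3 (means 5.67 and 30.9 CPM, log2 2.44) rose from a higher base. The death receptors Eda2r (means 0.187 and 27.9 CPM, log2 7.12, or 7.96 without TdTomato 2) and Tnfrsf10b (means 0.297 and 17.8 CPM, log2 5.80, or 6.64 without TdTomato 2) rose, as did Trp53 (means 17.4 and 45.2 CPM, log2 1.37) itself and its ubiquitin ligase Mdm2 (means 30.3 and 74.2 CPM, log2 1.29). Perp was the member that fell (log2 -0.50 ± 0.16, adjusted p = 0.032, not past the threshold without TdTomato 2, 3 or 4 or YAP_OE 1, 2, 3 or 4, with adjusted p up to 0.095).

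Most fetal and tumour-associated liver genes were nearly silent in the controls, and 11 of 13 tested members rose and 0 fell (12 and 1 of 13 without TdTomato 1), with a median log2 fold change 5.57. This list, like the others, was chosen with earlier results of these data known, so the count is no independent result. Gpc3, a cell-surface proteoglycan used as a marker of hepatocellular carcinoma, had 1 count in all controls and was at 1444, 846, 607, 1177 and 1139.7 CPM in YAP_OE 1 to 5. Gpc3 was 67887 times as high in YAP_OE (95% interval 12184 to 2681410.0), adjusted p = 2.7e-06. Alpha-fetoprotein (Afp) was at 0, 1.17, 1.12 and 1.54 CPM in TdTomato 1 to 4, against 52.7, 18.2, 13.1, 47.6 and 26.3 CPM in YAP_OE 1 to 5. Afp did not overlap between the groups, and its log2 fold change was 5.01 ± 0.86 (SE), adjusted p = 0.0014. Bex1 was at 0 CPM in every control, against 35.0, 17.3, 11.2, 30.8 and 29.1 CPM in YAP_OE 1 to 5. Bex1 was thus at least 536-fold higher in YAP_OE, adjusted p = 1.6e-04. The imprinted RNA H19 was at 13.3, 10.9, 14.1, 23.4 and 5.49 CPM in YAP_OE 1 to 5, against 1 control count. H19 was 869 times as high in YAP_OE (95% interval 156 to 34342), adjusted p = 1.1e-04. Igf2bp3 (means 0 and 0.469 CPM, not tested) had too few counts for the test.

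The 10 largest rises by the fitted values with a mean of at least 5 CPM, chosen by a rule on size, with sex-linked genes passed over, were Ankrd1, Vgll3 and 8 genes with no place in the lists. All 10 had 0 or 1 control counts, so their order depends on the prior count, and ratios and bounds would order the genes differently. Fgfbp1, a carrier that releases fibroblast growth factors from the matrix, was at 0 CPM in every control, against 269, 203, 120.2, 222 and 279 CPM in YAP_OE 1 to 5. Fgfbp1 was thus at least 4702-fold higher in YAP_OE, adjusted p = 2.6e-05. Emp1, an epithelial membrane protein, was at 0 CPM in every control, against 192, 72.6, 53.5, 85.4 and 144 CPM in YAP_OE 1 to 5. Emp1 was thus at least 2400.2-fold higher in YAP_OE, adjusted p = 1.3e-04. Psca, a surface antigen of stem cells of the prostate, was at 0 CPM in every control, against 124, 94.9, 46.9, 151 and 141 CPM in YAP_OE 1 to 5. Psca was thus at least 2393-fold higher in YAP_OE, adjusted p = 8.0e-05. The epithelial keratin Krt4 had 1 control count and stood at 246, 164, 77.7, 115 and 333 CPM in YAP_OE. Krt4 was 12025 times as high in YAP_OE (95% interval 2158 to 474972), adjusted p = 1.5e-05. Scn7a (0 in every control, mean 84.4 CPM in YAP_OE, at least 1807-fold), Fam83b (0 in every control, mean 35.9 CPM in YAP_OE, at least 779-fold), Tmem130 (0 in every control, mean 32.4 CPM in YAP_OE, at least 702-fold) and Tmeff2 (0 in every control, mean 25.8 CPM in YAP_OE, at least 548-fold) were likewise at 0 in every control.

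Biliary and progenitor genes formed another group with low control values: 14 of 15 tested members rose and 1 fell (15 and 1 of 18 without TdTomato 1), with a median log2 fold change 3.88. Osteopontin (Spp1), which cholangiocytes and macrophages secrete, was at 38.2, 19.6, 17.3 and 36.7 CPM in TdTomato 1 to 4, against 3699, 3641, 4709.9, 6115 and 5028 CPM in YAP_OE 1 to 5. For Spp1 the groups were apart, and the log2 fold change was 7.37 ± 0.39 (SE), adjusted p = 7.0e-06. Spp1 made up 91.6% to 96.1% of the summed cholangiocyte markers in YAP_OE. Without it, a sum chosen after the data were seen, the other markers added up to 23.7 to 52.8 CPM in TdTomato and 201 to 362 CPM in YAP_OE, and the groups stayed apart. The transcription factor Sox4, active in bile duct development, was at 0, 0.444, 0 and 0.289 CPM in TdTomato 1 to 4, against 148, 272, 269, 298 and 159 CPM in YAP_OE 1 to 5. Sox4 lay above every control in all 5 YAP_OE libraries, with a log2 fold change of 10.05 ± 0.69 (SE), adjusted p = 1.9e-05, or 10.79 without TdTomato 2. Sox9, which acts beside it, was at 10.1, 14.2, 6.81 and 8.90 CPM in TdTomato 1 to 4, against 82.7, 77.9, 86.6, 92.7 and 64.3 CPM in YAP_OE 1 to 5. Sox9 did not overlap between the groups, and its log2 fold change was 3.02 ± 0.24 (SE), adjusted p = 4.2e-05.

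The mature duct keratins stayed low in absolute terms. Krt19 was at 0, 0.0555, 0.0801 and 0.241 CPM in TdTomato 1 to 4, against 3.68, 3.13, 6.53, 8.15 and 4.14 CPM in YAP_OE 1 to 5. For Krt19 the groups were apart, and the log2 fold change was 5.58 ± 0.81 (SE), adjusted p = 6.3e-04, or 6.64 without TdTomato 4. Krt7 was at 0, 0.167, 0.0801 and 0 CPM in TdTomato 1 to 4, against 0.680, 0.484, 1.66, 1.69 and 0.474 CPM in YAP_OE 1 to 5. Krt7 lay above every control in all 5 YAP_OE libraries, with a log2 fold change of 3.88 ± 0.91 (SE), adjusted p = 0.0076, or 5.16 without TdTomato 2. Epcam, the epithelial adhesion molecule, was at 0, 0.111, 0.0801 and 0.144 CPM in TdTomato 1 to 4, against 3.80, 9.21, 20.04, 16.9 and 4.18 CPM in YAP_OE 1 to 5. Epcam did not overlap between the groups, and its log2 fold change was 6.83 ± 0.92 (SE), adjusted p = 4.5e-04. Prom1 (CD133) was at 0, 0.0555, 0.0801 and 0.0962 CPM in TdTomato 1 to 4, against 41.4, 43.5, 37.5, 38.7 and 36.2 CPM in YAP_OE 1 to 5. For Prom1 the groups were apart, and the log2 fold change was 9.20 ± 0.41 (SE), adjusted p = 3.6e-06. Onecut2, which also acts in hepatocytes, was the member that fell (log2 -0.80 ± 0.28, adjusted p = 0.047, not past the threshold without TdTomato 2, 3 or 4 or YAP_OE 1, 2, 4 or 5, with adjusted p up to 0.12), with overlapping groups. Among the 10 most abundant genes that rose were the simple epithelial keratins Krt8 (means 336 and 1419 CPM, log2 2.08) and Krt18 (means 314 and 1081 CPM, log2 1.79) and annexin A5, Anxa5 (means 61.5 and 1589 CPM, log2 4.69). Non-muscle myosin Myh9 (means 242 and 1092 CPM, log2 2.17) and beta-actin Actb (means 751 and 1257 CPM, log2 0.74) were others. Beta-actin is often used as a reference gene, and its groups did not overlap here.

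In the Notch pathway, which directs biliary fate, 12 of 17 tested members rose and 1 fell (15 and 1 of 18 without TdTomato 1), with a median log2 fold change 2.89. The ligand Jag1 was at 0, 2.55, 2.08 and 3.85 CPM in TdTomato 1 to 4, against 232, 174, 146, 149 and 174 CPM in YAP_OE 1 to 5. Jag1 lay above every control in all 5 YAP_OE libraries, with a log2 fold change of 6.33 ± 0.76 (SE), adjusted p = 2.6e-04. The target Hes1 and the receptor Notch1 also rose: Hes1 (means 19.8 and 100.4 CPM, log2 2.35) and Notch1 (means 13.03 and 55.2 CPM, log2 2.08). Notch2, the main Notch receptor of liver, was at 25.1, 95.6, 80.9 and 47.8 CPM in TdTomato 1 to 4, against 92.0, 126, 145, 84.3 and 55.9 CPM in YAP_OE 1 to 5. Its groups overlapped and it did not pass (log2 0.69 ± 0.40, adjusted p = 0.21). The glycosyltransferase Lfng, which tunes receptors to ligands, ranged over 0 to 0.241 CPM in TdTomato and 2.87 to 5.05 CPM in YAP_OE. Lfng did not overlap between the groups, and its log2 fold change was 5.15 ± 0.75 (SE), adjusted p = 6.1e-04, or 6.21 without TdTomato 4. Hes6, which antagonises Hes1, fell, ranging over 124 to 343 CPM in TdTomato and 24.3 to 41.5 CPM in YAP_OE. For Hes6 the groups were apart, and the log2 fold change was -2.58 ± 0.29 (SE), adjusted p = 2.0e-04.

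**Figure D3:**
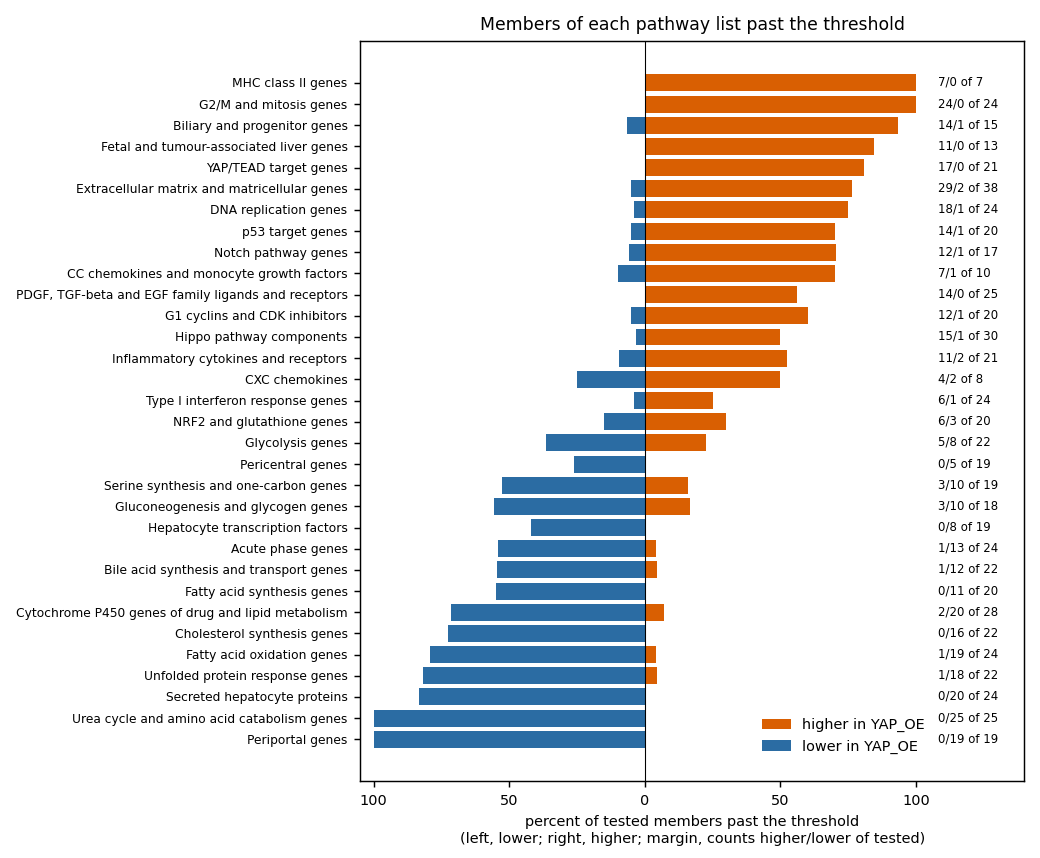
Percent of the tested members of each of 32 pathway lists that were higher (right) or lower (left) in YAP_OE, with the counts in the right margin. Over all genes tested, 21.5% were higher and 16.6% lower. Mitosis and MHC class II genes are all higher, and periportal and urea cycle genes are all lower.

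On the hepatocyte side the picture was uneven. Albumin (Alb, chromosome 5, 90460897 to 90476602), the main secreted protein of hepatocytes, was at 64819.7, 127545, 130394 and 92269 CPM in TdTomato 1 to 4, against 112900.0, 89686, 61709.8, 80059.7 and 116663 CPM in YAP_OE 1 to 5. Its groups overlapped and it did not pass (log2 -0.17 ± 0.27, adjusted p = 0.67), with a value of 0.021 with RLE factors. Of the secreted hepatocyte proteins, 0 of 24 tested members rose and 20 fell (0 and 21 of 24 without TdTomato 1), with a median log2 fold change -1.33. The anticoagulant antithrombin (Serpinc1) was at 2142, 3202, 3220.3 and 3204 CPM in TdTomato 1 to 4, against 574, 840.1, 838, 513 and 769.9 CPM in YAP_OE 1 to 5. Serpinc1 lay below every control in all 5 YAP_OE libraries, with a log2 fold change of -2.06 ± 0.22 (SE), adjusted p = 1.6e-04. Apolipoproteins Apoa1 (means 14469.6 and 6885 CPM, log2 -1.07) and Apoa2 (means 5518 and 599 CPM, log2 -3.20) fell, and transferrin, Trf (means 24212 and 33852 CPM, log2 0.48), did not pass. In bulk tissue, fewer cells of a type and less RNA per cell cannot be told apart. Summed hepatocyte markers were at 125986, 211388, 213362 and 182952 CPM in TdTomato 1 to 4 and 173758, 147889, 114717, 136463 and 181378 CPM in YAP_OE 1 to 5, with overlapping groups, and 0 of 10 tested members rose and 7 fell (0 and 8 of 10 without TdTomato 1).

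Transcription factors of hepatocyte identity gave a smaller share of falls than the secreted proteins, a difference that was not tested: 0 of 19 tested members rose and 8 fell (1 and 12 of 19 without TdTomato 1), with a median log2 fold change -0.89. The master regulator Hnf4a was at 293, 756, 1055 and 969 CPM in TdTomato 1 to 4, against 477, 485, 452, 404 and 299 CPM in YAP_OE 1 to 5. TdTomato 1 lay below every YAP_OE library and the other controls above, and Hnf4a did not pass with TdTomato 1 (log2 -0.86 ± 0.33, adjusted p = 0.067) and passed without it (log2 -1.13, adjusted p = 7.7e-04). Cebpa was at 579, 647, 644 and 558 CPM in TdTomato 1 to 4, against 268, 313, 297, 212 and 306 CPM in YAP_OE 1 to 5. Cebpa did not overlap between the groups, and its log2 fold change was -1.12 ± 0.16 (SE), adjusted p = 5.1e-04. Nr0b2 (SHP), a repressor of bile acid synthesis, was at 66.9, 128, 69.9 and 74.8 CPM in TdTomato 1 to 4, against 4.24, 11.9, 11.8, 5.80 and 12.98 CPM in YAP_OE 1 to 5. For Nr0b2 the groups were apart, and the log2 fold change was -3.18 ± 0.38 (SE), adjusted p = 2.5e-04. The xenobiotic receptor Nr1i2 (means 90.5 and 37.0 CPM, log2 -1.29) fell as well, whereas the pioneer factor Foxa1 did not pass (log2 1.20 ± 0.46, adjusted p = 0.066) and passed with RLE factors (log2 1.41, adjusted p = 0.027). The count of falls was 5 without any 1 of TdTomato 2, TdTomato 4, YAP_OE 4 and YAP_OE 5.

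Genes of the liver zones were examined next. Each periportal gene tested fell: 0 of 19 tested members rose and 19 fell (0 and 19 of 19 without TdTomato 1), with a median log2 fold change -2.59. Cyp2f2, the standard periportal marker, was at 1724, 2986, 3141 and 2751 CPM in TdTomato 1 to 4, against 50.7, 216, 186, 69.0 and 197 CPM in YAP_OE 1 to 5. Cyp2f2 lay below every control in all 5 YAP_OE libraries, with a log2 fold change of -4.21 ± 0.47 (SE), adjusted p = 2.0e-04. The glutaminase Gls2 was at 584, 669, 665 and 591 CPM in TdTomato 1 to 4, against 49.3, 87.2, 81.8, 53.7 and 75.6 CPM in YAP_OE 1 to 5. Gls2 did not overlap between the groups, and its log2 fold change was -3.17 ± 0.21 (SE), adjusted p = 1.7e-05. Of the pericentral genes, 0 of 19 tested members rose and 5 fell (2 and 8 of 19 without TdTomato 1), with a median log2 fold change -0.65. Glutamine synthetase (Glul), confined to cells around the central vein, was at 37.0, 162, 129 and 193 CPM in TdTomato 1 to 4, against 46.1, 132, 182, 106 and 133 CPM in YAP_OE 1 to 5. Its groups overlapped and it did not pass (log2 -0.12 ± 0.48, adjusted p = 0.87). The direction was not stable, at 0.10 with RLE factors. Cyp2e1 was at 741, 3427, 3625 and 2593 CPM in TdTomato 1 to 4, against 151, 1167, 1707, 518 and 717 CPM in YAP_OE 1 to 5. It spread widely in both groups and did not pass (log2 -1.61 ± 0.64, adjusted p = 0.075), but gave -1.92, adjusted p = 0.016 without TdTomato 1. Among the pericentral genes that fell were the transporter Slc1a2 (means 31.0 and 9.74 CPM, log2 -1.67) and the enzymes Cyp27a1 (means 502 and 161 CPM, log2 -1.65), Cyp1a2 (means 443 and 105 CPM, log2 -2.07, not past the threshold without TdTomato 2 or 3 or YAP_OE 4 or 5, with adjusted p up to 0.061) and Oat (means 343 and 156 CPM, log2 -1.14, not past the threshold without TdTomato 2, 3 or 4 or YAP_OE 4, with adjusted p up to 0.062). The count was 3 without any 1 of TdTomato 2, TdTomato 3 and YAP_OE 4. The difference between the zones was not tested.

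The genes of the urea cycle and amino acid breakdown that were tested fell. For urea cycle and amino acid catabolism genes, 0 of 25 tested members rose and 25 fell (0 and 25 of 25 without TdTomato 1), with a median log2 fold change -2.38. Cps1, the first enzyme of the cycle, was at 3117, 7736, 8797 and 4613 CPM in TdTomato 1 to 4, against 1592, 2033, 2537, 1315 and 1147 CPM in YAP_OE 1 to 5. For Cps1 the groups were apart, and the log2 fold change was -1.81 ± 0.35 (SE), adjusted p = 0.0025. Arginase (Arg1) was at 1383, 1723, 1737 and 1800.2 CPM in TdTomato 1 to 4, against 213, 332, 358, 236 and 343 CPM in YAP_OE 1 to 5. Arg1 lay below every control in all 5 YAP_OE libraries, with a log2 fold change of -2.49 ± 0.20 (SE), adjusted p = 5.0e-05. Tyrosine aminotransferase (Tat) was at 1922, 3423, 3431 and 3289 CPM in TdTomato 1 to 4, against 277, 402, 529, 394 and 344 CPM in YAP_OE 1 to 5. Tat did not overlap between the groups, and its log2 fold change was -2.95 ± 0.25 (SE), adjusted p = 5.6e-05. Otc (means 643 and 98.7 CPM, log2 -2.70) and Asl (means 681 and 113 CPM, log2 -2.59) also fell, while Ass1 (means 0.513 and 0.0684 CPM, not tested) carried almost no counts in either group. Multi-mapped and ambiguous reads were not counted, and their part in the low counts of Ass1 was not tested.

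Serine synthesis and one-carbon genes gave changes in both directions: 3 of 19 tested members rose and 10 fell (5 and 10 of 20 without TdTomato 1), with a median log2 fold change -0.92. Phgdh, the first enzyme of serine synthesis from glucose, had 2 control counts and was at 83.1, 30.3, 22.5, 38.4 and 77.8 CPM in YAP_OE 1 to 5. Phgdh was 1647 times as high in YAP_OE (95% interval 456 to 13603), adjusted p = 2.6e-05. The next enzyme, Psat1 (means 0.498 and 44.8 CPM, log2 6.45, or 7.25 without TdTomato 2), rose as well, and the third rise was the folate enzyme Mthfd1l (log2 3.07 ± 0.78, adjusted p = 0.011). Psph of serine synthesis did not pass (log2 0.42 ± 0.41, adjusted p = 0.47). The methionine cycle and transsulfuration enzymes Gnmt (means 2305 and 258 CPM, log2 -3.16), Mat1a (means 2440.0 and 899 CPM, log2 -1.44), Cbs (means 1009.9 and 308 CPM, log2 -1.71) and Cth (means 683 and 109 CPM, log2 -2.65) fell.

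For glycolysis genes, 5 of 22 tested members rose and 8 fell (6 and 9 of 22 without TdTomato 1), with a median log2 fold change 0.29. The share of rises was close to the 21.5% over all genes. The rises were the hexokinases Hk1 (means 0.361 and 3.67 CPM, log2 3.34, or 4.01 without TdTomato 3), Hk2 (mean 2.58 CPM in YAP_OE, ratio 54.0, 18.3 to 263) and Hk3 (mean 2.86 CPM in YAP_OE, ratio 91.0, 25.02 to 754), Pkm (means 2.88 and 25.8 CPM, log2 3.16), the pyruvate kinase of most tissues other than liver, and Pfkp (means 0.309 and 1.62 CPM, log2 2.36, not past the threshold without TdTomato 4 or YAP_OE 1, 2, 3, 4 or 5, with adjusted p up to 0.085, or 2.96 without TdTomato 2), the platelet-type phosphofructokinase. The falls included the liver isoform Pklr (means 206 and 84.4 CPM, log2 -1.29) and the shared enzymes Tpi1 (means 531 and 208 CPM, log2 -1.35) and Pgk1 (means 283 and 131 CPM, log2 -1.11). The count of falls was 5 without any 1 of TdTomato 2, TdTomato 4 and YAP_OE 2, 3 and 4. Of the gluconeogenesis and glycogen genes, 3 of 18 tested members rose and 10 fell (5 and 10 of 18 without TdTomato 1), with a median log2 fold change -1.04. Pck1, which commits carbon to glucose synthesis, was at 3953, 3945, 7429 and 7289 CPM in TdTomato 1 to 4, against 174, 389, 729, 439.6 and 553 CPM in YAP_OE 1 to 5. For Pck1 the groups were apart, and the log2 fold change was -3.63 ± 0.41 (SE), adjusted p = 2.0e-04. Its mitochondrial counterpart Pck2 rose (log2 2.94 ± 0.86, adjusted p = 0.021, not past the threshold without TdTomato 4 or YAP_OE 1, with adjusted p up to 0.056). The liver phosphorylase Pygl (means 692 and 210.3 CPM, log2 -1.72) fell and the brain form Pygb (means 2.29 and 41.3 CPM, log2 4.16) rose.

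In each list of lipid genes, falls outnumbered rises. In fatty acid oxidation, 1 of 24 tested members rose and 19 fell (1 and 23 of 24 without TdTomato 1), with a median log2 fold change -1.13. Acadvl (means 549.5 and 197 CPM, log2 -1.48), Etfdh (means 381 and 126 CPM, log2 -1.59) and Hsd17b4 (means 590.2 and 219 CPM, log2 -1.43) are examples. The member that rose was the hormone Fgf21 (means 0.463 and 9.36 CPM, log2 4.26, or 4.86 without TdTomato 4). In fatty acid synthesis, 0 of 20 tested members rose and 11 fell (1 and 13 of 20 without TdTomato 1), with a median log2 fold change -1.13. The elongase Elovl3 was at 276, 274, 167 and 252 CPM in TdTomato 1 to 4, against 0.278, 4.58, 2.68, 0.252 and 11.0 CPM in YAP_OE 1 to 5. Elovl3 lay below every control in all 5 YAP_OE libraries, with a log2 fold change of -6.02 ± 1.01 (SE), adjusted p = 0.0013, or -6.95 without YAP_OE 5. Me1, which supplies NADPH, ranged over 93.1 to 125 CPM in TdTomato and 32.3 to 43.2 CPM in YAP_OE. Me1 did not overlap between the groups, and its log2 fold change was -1.43 ± 0.16 (SE), adjusted p = 1.8e-04.

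In cholesterol synthesis, 0 of 22 tested members rose and 16 fell (0 and 18 of 22 without TdTomato 1), with a median log2 fold change -1.18. Tm7sf2 (means 184 and 41.2 CPM, log2 -2.15), Ebp (means 342 and 118 CPM, log2 -1.54) and Sc5d (means 575 and 181 CPM, log2 -1.67), enzymes of the late steps, gave the smallest adjusted p-values. Bile acid genes gave 1 rise and 12 falls among 22 tested members (1 and 13 of 22 without TdTomato 1), with a median log2 fold change -1.41. Cyp7a1, the rate-limiting enzyme of bile acid synthesis, was at 30.7, 35.5, 36.2 and 35.7 CPM in TdTomato 1 to 4, against 12.8, 66.3, 125, 29.7 and 17.6 CPM in YAP_OE 1 to 5. The YAP_OE values spread to both sides of the controls, and it did not pass (log2 0.54 ± 0.60, adjusted p = 0.53). Cyp7b1 of the alternative pathway was at 823, 683, 426 and 885 CPM in TdTomato 1 to 4, against 10.6, 27.5, 32.9, 15.1 and 48.7 CPM in YAP_OE 1 to 5. For Cyp7b1 the groups were apart, and the log2 fold change was -4.71 ± 0.47 (SE), adjusted p = 1.2e-04. The uptake carrier Slc10a1 (means 496 and 53.4 CPM, log2 -3.21) and the export pump Abcb11 (means 845 and 125 CPM, log2 -2.76) fell, and the basolateral exporter Abcc4 was at 0, 0.333, 0.401 and 0.289 CPM in TdTomato 1 to 4, against 13.9, 13.6, 11.1, 16.6 and 5.68 CPM in YAP_OE 1 to 5. Abcc4 lay above every control in all 5 YAP_OE libraries, with a log2 fold change of 5.53 ± 0.77 (SE), adjusted p = 5.2e-04.

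The cytochrome P450 genes of drug and lipid metabolism were lower with few exceptions: 2 of 28 tested members rose and 20 fell (3 and 24 of 29 without TdTomato 1), with a median log2 fold change -1.85. Cyp4v3 (means 806 and 103 CPM, log2 -2.96), Cyp2d26 (means 936 and 135 CPM, log2 -2.80) and Cyp2c29 (means 597 and 55.8 CPM, log2 -3.42) are among the falls, and the rises were Cyp26a1 (means 49.5 and 92.3 CPM, log2 0.90, not past the threshold without TdTomato 2, 3 or 4 or YAP_OE 2, 3 or 5, with adjusted p up to 0.077), which degrades retinoic acid, and Cyp39a1 (means 33.1 and 73.6 CPM, log2 1.15), an oxysterol hydroxylase. Several of these genes have near-identical copies whose shared reads were not counted, so single members are uncertain. The same holds for 6 of the 10 largest falls by the fitted values, the pheromone carriers Mup1, Mup7, Mup12 and Mup14, the serpin Serpina3c and Ugt2b38. The others were Elovl3, Cyp7b1, Tff3 and Tiam2. The labels give no sex for any library, and the part of sex in these falls was not tested. Mup7 was at 3652, 1714, 1371 and 3698 CPM in TdTomato 1 to 4, against 1.14, 36.5, 43.2, 0.8291 and 135 CPM in YAP_OE 1 to 5. Mup7 did not overlap between the groups, and its log2 fold change was -5.91 ± 1.35 (SE), adjusted p = 0.0066, or -6.99 without YAP_OE 5. Ugt2b38 was at 151, 72.7, 30.6 and 115 CPM in TdTomato 1 to 4, against 0.371, 0.559, 1.58, 0.577 and 2.80 CPM in YAP_OE 1 to 5. For Ugt2b38 the groups were apart, and the log2 fold change was -6.30 ± 0.73 (SE), adjusted p = 2.2e-04, or -6.89 without YAP_OE 5. Serpina3k, among the most abundant genes that fell, was at 20657, 19175, 16469 and 23619.7 CPM in TdTomato 1 to 4, against 168, 1701, 1904, 496 and 1437 CPM in YAP_OE 1 to 5. Serpina3k lay below every control in all 5 YAP_OE libraries, with a log2 fold change of -4.13 ± 0.63 (SE), adjusted p = 7.9e-04. In Mup7, Elovl3 and Ugt2b38 the YAP_OE values spread widely, with YAP_OE 5 highest in each. Tiam2, a guanine exchange factor for Rac, has no such copies named here and fell, ranging over 28.9 to 49.7 CPM in TdTomato and 0.587 to 1.74 CPM in YAP_OE. Tiam2 did not overlap between the groups, and its log2 fold change was -5.15 ± 0.40 (SE), adjusted p = 3.5e-05.

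Stress genes were examined by pathway. In the unfolded protein response, which protects the secretory route, 1 of 22 tested members rose and 18 fell (1 and 18 of 22 without TdTomato 1), with a median log2 fold change -1.33. The chaperone regulator Creld2 (means 259 and 44.4 CPM, log2 -2.54), the cochaperone Dnajc3 (means 517 and 160.2 CPM, log2 -1.69), the main chaperone Hspa5 (means 3267 and 1190.2 CPM, log2 -1.46) and Edem1 (means 282 and 91.4 CPM, log2 -1.63) fell. Atf3, a stress transcription factor induced by several routes, rose (log2 3.29 ± 0.99, adjusted p = 0.024, not past the threshold without TdTomato 4 or YAP_OE 1 or 4, with adjusted p up to 0.069). Acute phase genes gave 1 rise and 13 falls among 24 tested members (1 and 16 of 24 without TdTomato 1), with a median log2 fold change -1.10. The count of falls was 7 with all 15 libraries in the fit and 6 with the replicate number as a block. Summed over the list, TdTomato 4 was at 99849 CPM and the other controls at 35390.5 to 49655 CPM, against 23957 to 32070 CPM in YAP_OE. Orm1 was at 1248, 1078, 1027 and 2791 CPM in TdTomato 1 to 4, against 32.6, 221, 309, 111 and 269.6 CPM in YAP_OE 1 to 5. For Orm1 the groups were apart, and the log2 fold change was -3.03 ± 0.60 (SE), adjusted p = 0.0032. TdTomato 4 was its highest control. Ceruloplasmin (Cp), a copper carrier, rose and was at 785, 1633, 2054 and 1982 CPM in TdTomato 1 to 4, against 4243, 4003, 3677, 3911 and 3288 CPM in YAP_OE 1 to 5. Cp lay above every control in all 5 YAP_OE libraries, with a log2 fold change of 1.25 ± 0.27 (SE), adjusted p = 0.0051. For NRF2 and glutathione genes, 6 of 20 tested members rose and 3 fell (9 and 3 of 21 without TdTomato 1), with a median log2 fold change 0.43. Both shares lay nearer to the 21.5% and 16.6% over all genes than those of the unfolded protein response, and differences between the lists were not tested. Nfe2l2, which encodes NRF2, ranged over 19.4 to 75.5 CPM in TdTomato and 127 to 153 CPM in YAP_OE. Nfe2l2 did not overlap between the groups, and its log2 fold change was 1.56 ± 0.32 (SE), adjusted p = 0.0041. The glutathione transferases Gstm1 (means 762 and 1954 CPM, log2 1.36) and Gstm2 (means 24.0 and 81.1 CPM, log2 1.76) rose, and Gstp1 fell (log2 -2.32 ± 0.33, adjusted p = 5.7e-04).

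Most extracellular matrix genes rose, many from very low control levels: 29 of 38 tested members rose and 2 fell (32 and 4 of 40 without TdTomato 1), with a median log2 fold change 4.41, or 4.36 with members at 0 in all controls set to their bound. Col1a1, the main chain of scar collagen, was at 0 CPM in every control, against 4.85, 11.7, 17.5, 23.3 and 2.80 CPM in YAP_OE 1 to 5. Col1a1 was thus at least 254-fold higher in YAP_OE, adjusted p = 0.0011. Col3a1 was at 0, 0.0555, 0.320 and 0 CPM in TdTomato 1 to 4, against 9.99, 50.3, 70.7, 88.2 and 13.5 CPM in YAP_OE 1 to 5. For Col3a1 the groups were apart, and the log2 fold change was 9.07 ± 1.16 (SE), adjusted p = 3.5e-04, or 10.88 without TdTomato 3. Both were lowest in YAP_OE 1 and 5. Lama5, a basement membrane laminin, was at 0, 0.389, 0.641 and 0.722 CPM in TdTomato 1 to 4, against 80.1, 76.0, 85.2, 74.0 and 40.9 CPM in YAP_OE 1 to 5. Lama5 lay above every control in all 5 YAP_OE libraries, with a log2 fold change of 7.28 ± 0.61 (SE), adjusted p = 5.6e-05. Timp2, a protease inhibitor, was at 0, 0.611, 0.320 and 0.192 CPM in TdTomato 1 to 4, against 294, 252, 212, 326 and 261 CPM in YAP_OE 1 to 5. Timp2 did not overlap between the groups, and its log2 fold change was 9.82 ± 0.56 (SE), adjusted p = 9.7e-06, or 10.55 without TdTomato 2. Col15a1 (means 19.1 and 4.29 CPM, log2 -2.15) and Mmp15 (means 104 and 37.9 CPM, log2 -1.46) fell.

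Markers of stellate cells and fibroblasts, the usual source of fibrillar collagen in liver, moved with them. Of these, 14 of 16 tested rose and 0 fell (16 and 0 of 17 without TdTomato 1), and their summed level was 0.0781, 12.0, 15.9 and 3.03 CPM in TdTomato 1 to 4 and 37.4, 134, 179, 224 and 56.0 CPM in YAP_OE 1 to 5. The sums of YAP_OE 1 and 5 were below those of YAP_OE 2 to 4, opposite to their mitosis sums. Of the 18 markers, Col1a1, Acta2 and Gli1 were at 0 in all controls. Their part in the matrix result was not tested.

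Ligands and receptors of the PDGF, TGF-beta and EGF families, which carry signals between epithelium and mesenchyme, gave 14 rises and 0 falls among 25 tested members (18 and 4 of 26 without TdTomato 1), with a median log2 fold change 2.13. Pdgfb, the main growth factor for stellate cells, was at 0, 0.0555, 0.0801 and 0.144 CPM in TdTomato 1 to 4, against 27.8, 25.4, 26.4, 34.7 and 22.8 CPM in YAP_OE 1 to 5. For Pdgfb the groups were apart, and the log2 fold change was 8.40 ± 0.53 (SE), adjusted p = 1.5e-05, or 9.05 without TdTomato 4. The ErbB ligand Nrg1 was at 0, 0.333, 0.240 and 0.0481 CPM in TdTomato 1 to 4, against 36.1, 26.0, 26.5, 24.98 and 28.7 CPM in YAP_OE 1 to 5. Nrg1 lay above every control in all 5 YAP_OE libraries, with a log2 fold change of 7.46 ± 0.68 (SE), adjusted p = 8.2e-05, or 8.22 without TdTomato 2. Erbb2 had 1 control count and was at 16.5, 13.8, 13.4, 17.5 and 9.04 CPM in YAP_OE 1 to 5. Erbb2 was 911 times as high in YAP_OE (95% interval 163 to 36002), adjusted p = 6.9e-05. Tgfb1 (means 1.12 and 10.6 CPM, log2 3.22) and Tgfb2 (mean 19.6 CPM in YAP_OE, ratio 420.3, 144 to 2039.5) rose, and the hepatocyte receptors Egfr and Erbb3 gave log2 -0.56 ± 0.28, adjusted p = 0.15 and log2 -1.15 ± 0.52, adjusted p = 0.11.

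The factors that recruit and feed monocytes were examined next, given the title of the study. Of the CC chemokines and monocyte growth factors, 7 of 10 tested members rose and 1 fell (8 and 2 of 11 without TdTomato 1), with a median log2 fold change 5.41, or 4.70 with members at 0 in all controls set to their bound. Ccl2 (chromosome 11, 82035571 to 82037453), the ligand of CCR2, had 2 control counts and was at 15.4, 6.00, 12.3, 12.4 and 18.4 CPM in YAP_OE 1 to 5. Ccl2 was 414 times as high in YAP_OE (95% interval 115 to 3425), adjusted p = 1.6e-04. Csf1 (chromosome 3, 107741048 to 107760469), the growth factor of monocytes and macrophages, was at 0, 5.27, 3.85 and 5.15 CPM in TdTomato 1 to 4, against 321, 194, 122, 166 and 288 CPM in YAP_OE 1 to 5. Csf1 did not overlap between the groups, and its log2 fold change was 5.91 ± 0.86 (SE), adjusted p = 6.4e-04. Cx3cl1, the ligand of CX3CR1, was at 9.09, 8.39, 5.51, 8.33 and 6.12 CPM in YAP_OE, with 1 control count. Cx3cl1 was 485 times as high in YAP_OE (95% interval 86.9 to 19186), adjusted p = 1.5e-04. Mif fell (log2 -0.83 ± 0.23, adjusted p = 0.016), and 9 of the 19 members had too few counts to be tested.

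The cells that bear the receptors for these factors were examined by their markers. Inflammatory monocyte markers gave 6 rises and 0 falls among 7 tested members (8 and 0 of 8 without TdTomato 1). Ccr2 had 3 control counts and was at 2.50, 3.43, 3.58, 5.08 and 5.84 CPM in YAP_OE 1 to 5. Ccr2 was 85.7 times as high in YAP_OE (95% interval 29.2 to 417), adjusted p = 1.8e-04. Csf1r was at 0, 0.777, 2.88 and 2.36 CPM in TdTomato 1 to 4, against 209, 213, 166, 232 and 195 CPM in YAP_OE 1 to 5. For Csf1r the groups were apart, and the log2 fold change was 7.06 ± 0.77 (SE), adjusted p = 1.8e-04. The classical monocyte marker Ly6c2 had too few counts to be tested, at means of 0.138 and 0.139 CPM. Macrophage markers gave 15 rises and 0 falls among 17 tested members (17 and 0 of 17 without TdTomato 1), and their sums were 12.3, 26.5, 33.9 and 46.4 CPM in TdTomato 1 to 4 and 276, 261, 299, 469 and 713 CPM in YAP_OE 1 to 5. Adgre1 (F4/80) was at 0, 0.222, 0.401 and 0.722 CPM in TdTomato 1 to 4, against 11.6, 12.6, 15.1, 23.0 and 21.9 CPM in YAP_OE 1 to 5. Adgre1 lay above every control in all 5 YAP_OE libraries, with a log2 fold change of 5.58 ± 0.79 (SE), adjusted p = 5.6e-04, or 6.30 without TdTomato 4. The lysosomal protease Ctss was at 0.0781, 0.333, 0.801 and 2.17 CPM in TdTomato 1 to 4, against 36.6, 33.4, 41.8, 75.9 and 121 CPM in YAP_OE 1 to 5. Ctss did not overlap between the groups, and its log2 fold change was 6.12 ± 0.83 (SE), adjusted p = 4.7e-04, or 7.25 without TdTomato 4. YAP_OE 5 and 4 were the highest for the macrophage sum. Csf1r, which macrophages express too, made up 81.3% to 92.4% of the summed monocyte markers in YAP_OE. Without it, a sum chosen after the data were seen, the list was at 18.5 CPM in TdTomato 1, 1.84 to 2.45 CPM in TdTomato 2 to 4 and 17.3 to 44.8 CPM in YAP_OE, so that TdTomato 1 overlapped with YAP_OE.

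Kupffer cells, the resident macrophages of liver, gave 9 rises and 2 falls among 12 tested members (11 and 2 of 13 without TdTomato 1). Clec4f, found in Kupffer cells only, was at 8.82, 1.39, 3.04 and 4.62 CPM in TdTomato 1 to 4, against 49.8, 54.0, 57.3, 99.6 and 146 CPM in YAP_OE 1 to 5. For Clec4f the groups were apart, and the log2 fold change was 4.19 ± 0.59 (SE), adjusted p = 5.6e-04. The receptor Vsig4 was at 0.390, 0.111, 0.721 and 1.35 CPM in TdTomato 1 to 4, against 22.1, 21.2, 23.1, 39.8 and 53.6 CPM in YAP_OE 1 to 5. Vsig4 lay above every control in all 5 YAP_OE libraries, with a log2 fold change of 5.60 ± 0.69 (SE), adjusted p = 2.8e-04, or 6.32 without TdTomato 4. The fallers, C6 and Nr1h3, are also made by hepatocytes (log2 -2.61 ± 0.44, adjusted p = 0.0013 and log2 -1.21 ± 0.14, adjusted p = 2.0e-04), and the summed level of the list overlapped between the groups. Sinusoidal and vascular endothelial markers had sums of 64.5 to 98.3 CPM against 206 to 336 CPM in YAP_OE, and 10 of 19 tested members rose and 0 fell (19 and 0 of 20 without TdTomato 1). The endothelial receptors Kdr (means 7.01 and 24.8 CPM, log2 1.82) and Eng (means 7.33 and 20.5 CPM, log2 1.49) are examples. Rises thus outnumbered falls among the markers of stellate, endothelial, Kupffer and other macrophage cells, and the part of cell makeup in any gene that these cells express was not tested.

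**Figure D4:**
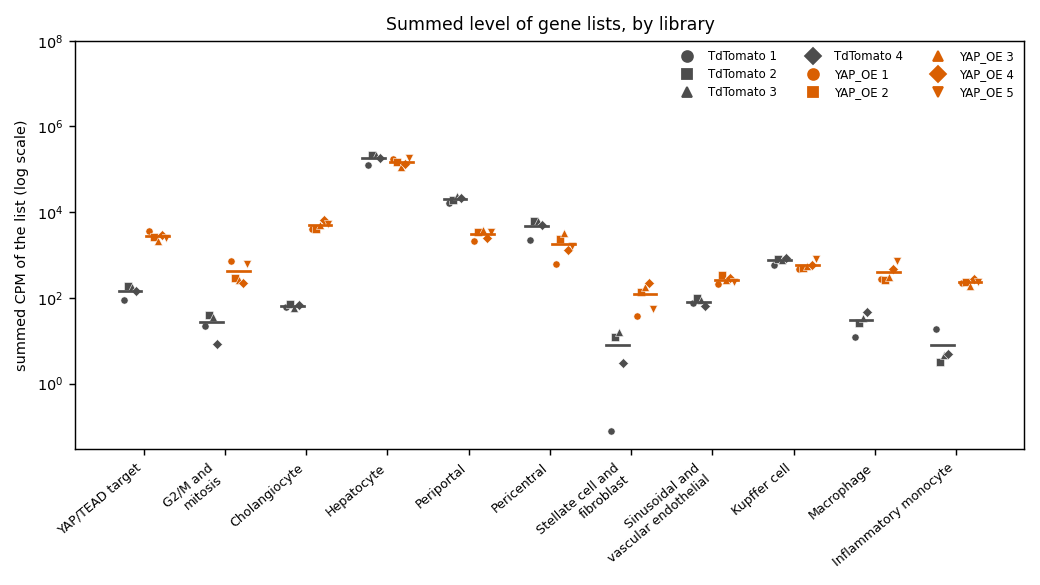
Summed CPM of 11 gene lists (vertical axis, log scale) in each library, with bars at the group means. The groups are apart for the YAP/TEAD target, mitosis, cholangiocyte, stellate, endothelial, macrophage and monocyte lists and overlap for hepatocyte and Kupffer cell markers. The Kupffer sum includes C6, also made by hepatocytes, which was at 339 CPM or more in each control and fell. Of the 12 Kupffer markers tested, 9 rose. Spp1 carries most of the cholangiocyte sum in YAP_OE and Csf1r most of the monocyte sum, whose groups overlap without Csf1r through TdTomato 1; YAP_OE 1 and 5 are highest for mitosis and lowest for stellate markers among YAP_OE.

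Other blood cell markers were sparse. Of the 15 T and NK cell markers 1 could be tested, Cd4, which fell (log2 -2.67 ± 0.87, adjusted p = 0.035, not past the threshold without TdTomato 2, 3 or 4 or YAP_OE 1, 2, 3 or 4, with adjusted p up to 0.094). Csf3r was the only neutrophil marker tested (log2 3.28 ± 0.66, adjusted p = 0.0034) and Itgax the dendritic marker that rose (ratio 36.3, 95% interval 12.3 to 177 from 3 control counts, adjusted p = 6.8e-04). Haemoglobin genes are listed at 0 in all 9 libraries, and Alas2, which erythroid cells share with few others, fell (log2 -3.47 ± 0.39, adjusted p = 2.0e-04). No mesothelial marker had enough counts.

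Antigen presentation genes rose, and cytokine genes in part. Of the MHC class II genes, 7 of 7 tested members rose and 0 fell (7 and 0 of 7 without TdTomato 1), with a median log2 fold change 4.86. Cd74, the invariant chain, was at 0, 2.16, 2.32 and 3.46 CPM in TdTomato 1 to 4, against 33.7, 41.6, 47.5, 78.4 and 92.2 CPM in YAP_OE 1 to 5. Cd74 did not overlap between the groups, and its log2 fold change was 4.86 ± 0.81 (SE), adjusted p = 0.0013. H2-Eb1 was at 0, 0.444, 0.961 and 0.866 CPM in TdTomato 1 to 4, against 11.4, 18.7, 16.8, 33.8 and 41.2 CPM in YAP_OE 1 to 5. For H2-Eb1 the groups were apart, and the log2 fold change was 5.40 ± 0.84 (SE), adjusted p = 8.6e-04. Of the inflammatory cytokines and receptors, 11 of 21 tested members rose and 2 fell (13 and 3 of 21 without TdTomato 1), with a median log2 fold change 2.08. Il1b ranged over 0 to 0.160 CPM in TdTomato and 3.02 to 9.94 CPM in YAP_OE. Il1b lay above every control in all 5 YAP_OE libraries, with a log2 fold change of 5.97 ± 0.81 (SE), adjusted p = 4.6e-04. The TWEAK receptor Tnfrsf12a ranged over 4.81 to 12.1 CPM in TdTomato and 90.3 to 176 CPM in YAP_OE. Tnfrsf12a did not overlap between the groups, and its log2 fold change was 4.03 ± 0.37 (SE), adjusted p = 8.3e-05. CXC chemokines gave 4 rises and 2 falls among 8 tested members (4 and 3 of 9 without TdTomato 1), with Cxcl13 (means 0.0657 and 2.40 CPM, log2 4.93, or 5.72 without TdTomato 2) and Cxcl16 (means 2.42 and 13.9 CPM, log2 2.52) higher and Cxcl12 (means 316 and 150.3 CPM, log2 -1.07) lower. Type I interferon response genes gave 6 rises and 1 fall among 24 tested members (14 and 4 of 24 without TdTomato 1), so that the share of rises was close to the 21.5% over all genes with 9 libraries, and above the 32.5% over all genes without TdTomato 1. Ifit2 was at 0, 2.16, 1.202 and 0.674 CPM in TdTomato 1 to 4, against 54.9, 42.3, 40.9, 42.8 and 41.0 CPM in YAP_OE 1 to 5. For Ifit2 the groups were apart, and the log2 fold change was 5.43 ± 0.75 (SE), adjusted p = 5.2e-04, or 6.13 without TdTomato 2.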

How the data were processed

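Poly(A) RNA of liver was sequenced from NEBNext Ultra II Directional libraries on an Illumina NovaSeq instrument, per the labels. The authors used FastQC, Trimmomatic, STAR and mm10, per the submitters' processing notes, with no versions given. The deposited values are read counts per gene in 3 columns by strand, with multi-mapped and ambiguous reads in lines of their own. The reverse-strand column was used, which held most reads, and the 4 summary lines were left out. Counts were analysed in R 4.3.3 with edgeR 4.0.16: genes were filtered by filterByExpr, scaled by TMM and tested by the robust quasi-likelihood test on the 9 libraries, with 7 residual degrees of freedom. CPM use the TMM-scaled totals. The TMM factors were 0.756 to 0.948 in TdTomato and 1.01 to 1.28 in YAP_OE, so small changes and the separation of groups by CPM depend on them. Alternatives used DESeq2 1.42.0, limma 3.58.1 (voom), other scalings, filters and strands, all 15 libraries, a replicate block, and each library left out. The code was checked on simulated counts.

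Members and gene lists were chosen with earlier results of these data known. The genes named are the Yap, TEAD and LATS genes, fixed markers, up to 3 members per list, taken by smallest adjusted p, the 10 largest changes each way (mean of at least 5 CPM, no overlap) and the 10 most abundant genes past the threshold each way. Others were chosen after their values were seen. Some genes that this rule names are not reported here. Of 821 list symbols 3 had no entry. Groups with 0 counts get a bound from a floor of 3 counts. Coordinates are from GENCODE M21 (GRCm38, the same assembly as mm10).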

Additional observations from a re-analysis of the deposited data

Results flagged for a closer look

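In groups of 4 or 5 libraries, Dixon's ratio sets the gap between the highest or lowest library and its nearest neighbour against the whole range of the group. Of 410 group values of the genes named here, 33 (8.05%) were past its 95% critical value, and chance alone gives about 1 in 20. TdTomato 1 was the highest of its group for F3 (20.6 CPM), Hes1 (38.9 CPM), Krt18 (388 CPM), Me1 (125 CPM), Pkm (5.78 CPM) and Serpina3c (125 CPM), and the lowest of its group for C6 (339 CPM), Cyp7a1 (30.7 CPM), Dnajc3 (295 CPM), Lats2 (0 CPM), Oat (184 CPM), Pck2 (0 CPM), Serpinc1 (2142 CPM) and Tat (1922 CPM). TdTomato 2 was the highest of its group for Nr0b2 (128 CPM). TdTomato 4 was the highest of its group for Hpx (16296 CPM) and Orm1 (2791 CPM), and the lowest of its group for Actb (638 CPM) and Etnppl (147 CPM). YAP_OE 1 was the highest of its group for Ifit2 (54.9 CPM), Igf2bp3 (1.61 CPM) and Uhrf1 (36.8 CPM). YAP_OE 4 was the highest of its group for Acta2 (4.83 CPM). YAP_OE 5 was the highest of its group for Apoa1 (10154 CPM), Ebp (176 CPM), Mif (96.3 CPM), Mup1 (9.79 CPM), Mup12 (10.02 CPM), Sepp1 (3672 CPM) and Tff3 (3.51 CPM), and the lowest of its group for Lama5 (40.9 CPM), Myh9 (665 CPM) and Wwc2 (31.8 CPM). Most of these fell in TdTomato 1, the library with 78.5% unmapped reads, or in YAP_OE 5, with the larger share of reads outside genes, and the part of either share in these values was not tested.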

How the results depend on the processing

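Among 202 named genes past the threshold of 218 tested, 0 changed direction under any alternative, and 189 passed without each library in turn. These genes were chosen partly for small adjusted p-values or large changes in these data, so their stability was partly fixed by that choice. Of all 4853 calls, 3810 (without YAP_OE 4) to 4814 (without TdTomato 1) were kept in direction without 1 library. With all 15 libraries in the fit, 3567 were kept. Leaving out 1 library gave 2182 to 4216 higher and 1628 to 3452 lower genes, both highest without TdTomato 1. With limma voom and quality weights 4372 were higher and 4009 lower. DESeq2 (3954 and 1986), RLE factors (3277 and 1689), upper-quartile factors (3186 and 1812), the column without strand (2670 and 2095), a filter of 1 CPM in 4 libraries (2397 and 2052), no filter (3212 and 2057) and a fit of all 15 libraries (2332 and 1412, against 2737 and 2116) are the others; the causes were not tested. The deviations of same-numbered libraries from their group means correlated at -0.025, 0.187, 0.207 and 0.051. The labels do not say whether same-numbered libraries were handled together. The TdTomato means include TdTomato 1, so these values cannot decide it. With the replicate number as a block, 1478 genes were higher and 1601 lower, 2985 of them shared in direction, and 26 of 88 list counts moved by over 1.5 times, among them mitosis genes, with 4 rises in place of 24. Genes whose log2 fold change reversed, none of which had passed, were Alb (0.021 with DESeq2, 0.021 with RLE factors), Cyp7a1 (-0.12 to 0.80 over the fits without 1 library), Glul (0.10 with DESeq2, 0.10 with RLE factors, 0.049 with upper-quartile factors, -0.44 to 0.12 over the fits without 1 library), Lats1 (-0.31 with voom with quality weights, -0.37 to 0.32 over the fits without 1 library) and Psph (-0.041 with voom with quality weights). DESeq2, RLE and upper-quartile factors took the call from 2, 5 and 2 named genes, the fit of all 15 libraries from 24 and the replicate block from 26. For genes with few control counts, the ratios are bounds or wide intervals. TdTomato 1 held 13523194 counts in genes against 15934475 in TdTomato 3, but 8501 genes with a count against 13372. This limits what the zeros of TdTomato 1 show. Bounds and ratios still include its full total among the controls, so they may be too high.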

Other observations

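The most abundant genes that rose or fell include several that the lists above left undescribed. Clusterin (Clu), a secreted chaperone, was at 2811, 2449, 2808 and 3364 CPM in TdTomato 1 to 4, against 4169.6, 4602, 5345, 6069.7 and 4615 CPM in YAP_OE 1 to 5. Clu lay above every control in all 5 YAP_OE libraries, with a log2 fold change of 0.80 ± 0.17 (SE), adjusted p = 0.0052. The alanine aminotransferase Gpt2 (means 373 and 765 CPM, log2 1.04) rose, while each tested gene of the urea cycle and amino acid catabolism list fell. Among the plasma proteins that fell, apolipoprotein E (Apoe) was at 24730.0, 25198, 23741 and 30999 CPM in TdTomato 1 to 4, against 15852, 18599, 15567, 19415 and 18543 CPM in YAP_OE 1 to 5. Apoe did not overlap between the groups, and its log2 fold change was -0.57 ± 0.16 (SE), adjusted p = 0.017. Apoe did not pass with RLE factors (log2 -0.40, adjusted p = 0.060). It also did not pass with all 15 libraries (adjusted p = 0.27) or with the replicate block (adjusted p = 0.054), so its fall depends on the scaling and the fit. Haemopexin, which binds free haem, and the selenium carrier selenoprotein P fell further, with Hpx (means 9196 and 3591 CPM, log2 -1.36) and Sepp1 (means 8447 and 2889 CPM, log2 -1.55). The fibrinogen chains gave Fga (means 8669 and 3929 CPM, log2 -1.14) and Fgb (means 7854 and 4483 CPM, log2 -0.81, not past the threshold without TdTomato 3 or 4 or YAP_OE 1, 2, 3 or 4, with adjusted p up to 0.086), with overlapping groups.

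The male pheromone carrier Mup20 was at 42617, 14348, 9798 and 28165 CPM in TdTomato 1 to 4, against 1163, 1790.0, 1959.6, 1807 and 2280.2 CPM in YAP_OE 1 to 5. For Mup20 the groups were apart, and the log2 fold change was -3.72 ± 0.43 (SE), adjusted p = 2.2e-04. Mup3 (means 12798 and 1334 CPM, log2 -3.26) and Mup14 (means 1078 and 26.2 CPM, log2 -5.36, or -6.30 without YAP_OE 5) fell with it. Reads shared between these near-identical genes could not be assigned to 1 of them, so their single values are uncertain. The sex of the animals is not given, and its part in the falls of the Mup genes was not tested. Tff3, a trefoil peptide of mucous epithelia, was at 158, 11.6, 14.4 and 49.4 CPM in TdTomato 1 to 4, against 1.30, 1.34, 0.792, 0.937 and 3.51 CPM in YAP_OE 1 to 5. Tff3 lay below every control in all 5 YAP_OE libraries, with a log2 fold change of -5.21 ± 0.87 (SE), adjusted p = 0.0013, or -4.01 without TdTomato 1. Etnppl, which breaks down phosphoethanolamine, was at 337, 324, 329 and 147 CPM in TdTomato 1 to 4, against 17.8, 22.0, 15.3, 19.2 and 22.4 CPM in YAP_OE 1 to 5. Etnppl did not overlap between the groups, and its log2 fold change was -3.88 ± 0.27 (SE), adjusted p = 2.1e-05. The acute phase proteins Saa4 (means 783 and 69.9 CPM, log2 -3.49) and Crp (means 600.5 and 197 CPM, log2 -1.61) fell. Of the transcripts that immune and mesenchymal cells carry, the lipid receptor Trem2 (0 in every control, mean 2.34 CPM in YAP_OE, at least 49.6-fold), the integrin Itgam (mean 4.32 CPM in YAP_OE, ratio 90.8, 30.9 to 442), the matrix proteoglycan Lum (mean 3.16 CPM in YAP_OE, ratio 199, 35.4 to 7860.4) and the antiviral sensors Oas2 (mean 2.06 CPM in YAP_OE, ratio 65.3, 17.9 to 542) and Oas3 (mean 1.45 CPM in YAP_OE, ratio 45.5, 12.4 to 378) rose from 0 to 3 control counts.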
